A study of Mus musculus with 27 samples.

Results

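The 7 genes described here encode adhesion molecules and vessel markers: Icam1, Vcam1, Madcam1, Selp, Sele, Pecam1 and Cdh5. They were taken by name, and all 12 probe sets annotated to them on the array were used, of 45037 probe sets and 18193 genes in all. Expression was measured in RNA of full-thickness colon from mice, on 27 Affymetrix arrays with 1 array for each sample. They form 9 groups of 3, from 3 kinds of mice that were each taken at ages of 7, 9 and 12 weeks. These were Il10-/- mice kept conventionally (called conventional knockouts here), Il10-/- mice kept specific pathogen free (SPF knockouts), and wild-type mice kept conventionally. Interleukin 10, the product of Il10, damps inflammation, and its loss can lead to colitis in mice. Which samples are conventional knockouts follows by elimination from the sample codes, of which only those for SPF knockouts and wild types are explained. The design compared the kinds of mice at each age and followed each kind over the 3 ages.

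Several features of the groups limit what a comparison can show. SPF knockouts differ from wild types in genotype and in housing together, since no SPF wild types were used here. The authors selected the 3 replicates of each group by colon length and colonic damage. Whether each sample came from 1 animal or a pool is not stated, so the p-values measure the spread between these samples. The 3 comparisons at an age share arrays, and both knockout groups are set against the same wild-type arrays. The Il10 probe set lay between 4.66 and 7.09 on the log2 scale in the 18 knockout arrays and between 3.51 and 3.83 in the 9 wild-type arrays. Neither the allele nor the place of that probe set in the gene is known here, so it does not check the labels. Array medians lay between 4.92 and 4.99, and Spearman correlations between arrays between 0.953 and 0.993. Wild-type 12-week replicate 2 had the largest difference between the 3' and the 5' actin probe sets, 0.95 on the log2 scale, where the next was 0.72. SPF 12-week replicate 2 had the lowest weight in an estimate of array precision, 0.269. Such a weight also falls where a sample differs from the others of its group. The actin difference of this array was 0.50. Its median Spearman correlation with the other arrays was 0.986, above 0.971 and 0.964 in replicates 1 and 3. Whether the low weight comes from the array or from the sample was not tested.

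Leukocytes leave the blood in steps. P-selectin and E-selectin on activated endothelium let them roll, and ICAM-1, VCAM-1 and MAdCAM-1 then hold them by binding integrins. MAdCAM-1 is known for its expression on venules of the gut and its lymphoid tissue, where it receives lymphocytes that carry integrin alpha4beta7. Inflammatory cytokines such as TNF induce ICAM-1, VCAM-1 and the selectins through NF-kB, whereas PECAM-1 and VE-cadherin are present on resting endothelium and hold its cells together. ICAM-1 and VCAM-1 are not restricted to endothelium, P-selectin is also stored in platelets, and PECAM-1 is also carried by platelets and leukocytes.

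The promoters of the adhesion genes are shown because several of these genes changed together, as described further on. RefSeq sequence on GRCm38.p6 covered 4 of the 7 genes, in windows that run from 250 bases before to 50 bases after the start of the gene. The motifs searched on both strands were GGNNTTTCC (a short form of the NF-kB site), the interferon response element and TATAAA (the TATA box), and capitals mark their matches. All 4 windows are on the plus strand, at chr9:21015690-21015989 (Icam1), chr10:79664309-79664608 (Madcam1), chr1:164115014-164115313 (Selp) and chr1:164047984-164048283 (Sele).
Icam1: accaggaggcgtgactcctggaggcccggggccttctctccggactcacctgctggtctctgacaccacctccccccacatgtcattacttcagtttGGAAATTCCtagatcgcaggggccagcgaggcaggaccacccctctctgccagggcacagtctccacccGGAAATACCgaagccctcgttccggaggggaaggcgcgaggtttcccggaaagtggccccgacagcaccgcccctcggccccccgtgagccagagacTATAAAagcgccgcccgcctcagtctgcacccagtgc
Madcam1: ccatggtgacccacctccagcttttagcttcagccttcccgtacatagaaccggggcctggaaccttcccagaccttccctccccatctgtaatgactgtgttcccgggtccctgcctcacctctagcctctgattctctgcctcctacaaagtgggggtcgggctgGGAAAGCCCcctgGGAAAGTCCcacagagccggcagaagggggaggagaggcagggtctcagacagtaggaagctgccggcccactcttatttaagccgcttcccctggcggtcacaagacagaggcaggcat
Selp: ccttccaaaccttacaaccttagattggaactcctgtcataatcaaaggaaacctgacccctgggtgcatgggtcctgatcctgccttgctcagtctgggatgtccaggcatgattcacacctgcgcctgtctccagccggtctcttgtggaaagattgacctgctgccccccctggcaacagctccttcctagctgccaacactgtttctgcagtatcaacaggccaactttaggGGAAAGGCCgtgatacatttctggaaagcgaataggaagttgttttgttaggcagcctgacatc
Sele: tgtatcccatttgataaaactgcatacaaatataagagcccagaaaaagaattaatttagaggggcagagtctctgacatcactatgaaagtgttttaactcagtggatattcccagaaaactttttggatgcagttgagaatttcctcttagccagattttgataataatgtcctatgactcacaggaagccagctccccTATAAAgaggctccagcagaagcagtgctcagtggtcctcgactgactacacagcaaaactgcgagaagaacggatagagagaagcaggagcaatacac
Icam1 had GGNNTTTCC on the reverse strand at -153 to -145 (GGAAATTCC) and at -84 to -76 (GGAAATACC), counted from the start site. In Madcam1 the same motif lay on the reverse strand at -83 to -75 (GGAAAGCCC) and at -70 to -62 (GGAAAGTCC), and in Selp at -14 to -6 (GGAAAGGCC). The Sele window held no GGNNTTTCC and had TATAAA at -49 to -44. TATAAA also stood at 14 to 19 in Icam1. The interferon response element matched in none of the 4 windows. Of 32851 promoters of the same length, 5.82% held GGNNTTTCC, 3.44% the interferon response element and 13.6% TATAAA. A match in these letters is a description and not a shown binding site.

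Icam1, Vcam1, Madcam1 and Selp were higher than in wild types at 9 weeks in conventional knockouts and at 12 weeks in SPF knockouts, and Pecam1, Cdh5 and Sele were not called in either comparison. The differences of these 4 genes in conventional knockouts at 9 weeks ran from 2.29-fold for Madcam1 to 5.18-fold for Icam1. SPF knockouts at 12 weeks had differences from 1.83-fold for Madcam1 to 6.11-fold for Icam1. None of the 7 genes was called in conventional knockouts against wild types at 12 weeks. Differences are on the log2 scale with their standard error. A difference was called where the p of limma, adjusted over all 45037 probe sets by the method of Benjamini and Hochberg, was under 0.05. Each gene is counted by its probe set with the highest mean over the 27 arrays. In these bulk samples fewer cells of a type and less RNA per cell cannot be told apart.

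**Figure D1:**
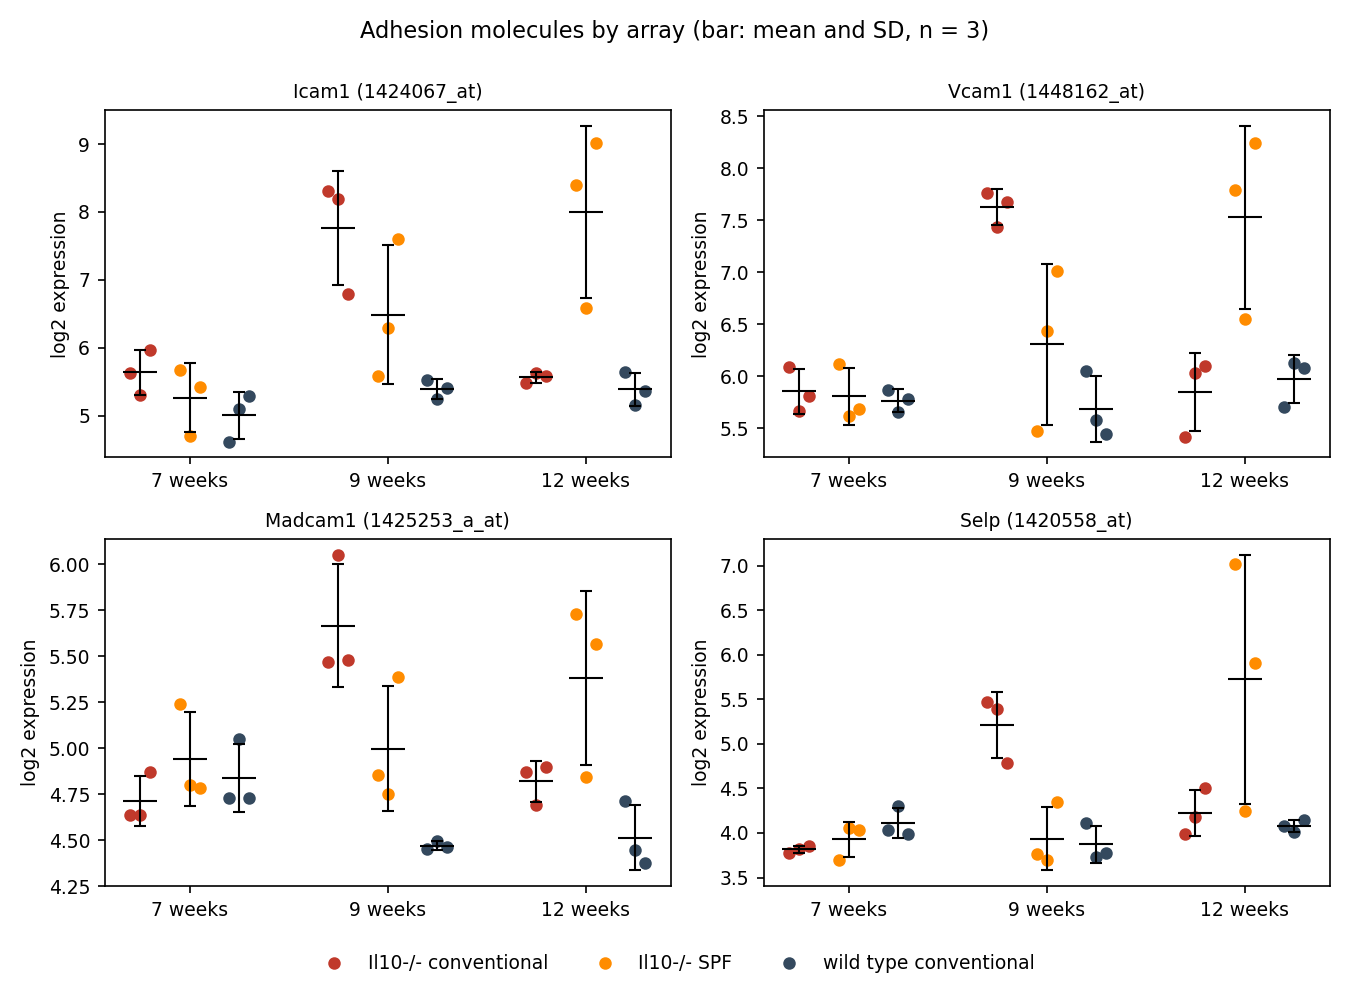
Log2 expression of Icam1, Vcam1, Madcam1 and Selp (vertical axes) in each of the 27 arrays at 7, 9 and 12 weeks; points are arrays, and bars are the mean and SD of 3 arrays. Conventional knockouts were high at 9 weeks and low again at 12 weeks, while SPF knockouts were highest at 12 weeks with replicate 2 below the other 2 arrays.

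Icam1 encodes the ligand of the leukocyte integrins LFA-1 and Mac-1. At 7 weeks its log2 level was 5.63, 5.31 and 5.97 in conventional knockouts, 5.67, 4.70 and 5.42 in SPF knockouts, and 4.62, 5.10 and 5.30 in wild types. At 9 weeks it was 8.30, 8.19 and 6.80 in conventional knockouts, 5.58, 6.29 and 7.60 in SPF knockouts, and 5.53, 5.24 and 5.41 in wild types. By 12 weeks the values were 5.48, 5.63 and 5.59 in conventional knockouts, 8.40, 6.58 and 9.02 in SPF knockouts, and 5.64, 5.16 and 5.36 in wild types. All 3 conventional knockouts at 9 weeks and all 3 SPF knockouts at 12 weeks lay above every wild-type array of their age. Of all probe sets, 18.0% and 14.4% did so in these comparisons. Icam1 was 2.37 ± 0.48 higher in conventional knockouts than in wild types at 9 weeks (adjusted p = 0.00201). Its difference between SPF knockouts and wild types at 12 weeks was 2.61 ± 0.48 (adjusted p = 0.000454). At 9 weeks the SPF knockouts also lay above the wild types without overlap, as did 16.6% of all probe sets. That difference was 1.10 ± 0.48 and was not called (adjusted p = 0.164).

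Vcam1 encodes the ligand of integrin alpha4beta1, and it was read by 3 probe sets. The brightest gave 6.09, 5.67 and 5.81 in conventional knockouts at 7 weeks, 6.12, 5.62 and 5.68 in SPF knockouts, and 5.87, 5.65 and 5.78 in wild types. At 9 weeks it gave 7.76, 7.43 and 7.68 in conventional knockouts, 5.48, 6.43 and 7.01 in SPF knockouts, and 6.05, 5.58 and 5.44 in wild types. At 12 weeks the same probe set gave 5.41, 6.03 and 6.09 in conventional knockouts, 7.79, 6.55 and 8.24 in SPF knockouts, and 5.71, 6.12 and 6.08 in wild types. The high groups were thus those of Icam1, and the conventional knockouts at 9 weeks were tightly spaced while the SPF knockouts at 9 and 12 weeks were spread out. Vcam1 was 1.93 ± 0.33 higher in conventional knockouts than in wild types at 9 weeks (3.82-fold, adjusted p = 0.000551). Its difference between SPF knockouts and wild types at 12 weeks was 1.56 ± 0.33 (2.94-fold, adjusted p = 0.00137). The second Vcam1 probe set gave 1.31 ± 0.24 and 1.07 ± 0.24 in these comparisons, and both were called. The dimmest gave 0.37 ± 0.13 in conventional knockouts at 9 weeks (adjusted p = 0.0503, not called) and 0.55 ± 0.13 in SPF knockouts at 12 weeks (adjusted p = 0.00261). Over the 27 arrays the brightest probe set had a Pearson correlation of 0.909 with the second and 0.689 with the dimmest, as a description over arrays that share groups.

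Madcam1 encodes the mucosal addressin that binds integrin alpha4beta7. At 7 weeks its log2 level was 4.63, 4.64 and 4.87 in conventional knockouts, 5.24, 4.80 and 4.78 in SPF knockouts, and 4.73, 5.05 and 4.73 in wild types. Values at 9 weeks were 5.47, 6.05 and 5.48 in conventional knockouts, 4.85, 4.75 and 5.39 in SPF knockouts, and 4.45, 4.50 and 4.46 in wild types. Those at 12 weeks were 4.87, 4.69 and 4.90 in conventional knockouts, 5.73, 4.84 and 5.57 in SPF knockouts, and 4.71, 4.45 and 4.38 in wild types. Both knockout groups lay above the wild types without overlap at 9 weeks, and the SPF knockouts did so at 12 weeks. The shares of all probe sets were 18.0% (conventional) and 16.6% (SPF) at 9 weeks and 14.4% at 12 weeks. The difference of conventional knockouts from wild types at 9 weeks was 1.20 ± 0.20 (adjusted p = 0.000422), and that of SPF knockouts at 9 weeks was 0.53 ± 0.20 (adjusted p = 0.103). At 12 weeks SPF knockouts were 0.87 ± 0.20 above wild types (adjusted p = 0.00238).

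Selp encodes P-selectin, the selectin stored in granules of endothelium and platelets. Its brightest probe set gave 3.77, 3.82 and 3.86 in conventional knockouts at 7 weeks, 3.70, 4.05 and 4.03 in SPF knockouts, and 4.04, 4.31 and 3.99 in wild types. At 9 weeks the values were 5.47, 5.39 and 4.78 in conventional knockouts, 3.76, 3.70 and 4.35 in SPF knockouts, and 4.11, 3.74 and 3.77 in wild types. At 12 weeks they were 3.99, 4.18 and 4.50 in conventional knockouts, 7.02, 4.25 and 5.91 in SPF knockouts, and 4.08, 4.01 and 4.15 in wild types. SPF knockouts at 9 weeks overlapped the wild types, with a difference of 0.06 ± 0.38 and a 95% interval from -0.72 to 0.85. Conventional knockouts at 9 weeks were 1.34 ± 0.38 above wild types (2.53-fold, adjusted p = 0.0173). This call was lost when conventional 9-week replicate 1 or 2 or wild-type 9-week replicate 2 or 3 was left out. SPF knockouts at 12 weeks were 1.65 ± 0.38 above wild types (3.13-fold, adjusted p = 0.00252). The difference was 1.00 (adjusted p = 0.0254) without SPF 12-week replicate 1, the highest array. The second Selp probe set gave 0.80 ± 0.23 in conventional knockouts at 9 weeks (adjusted p = 0.0199), a call that was lost without conventional or wild-type 9-week replicate 2. The dimmest gave 0.18 ± 0.13 there and was not called (adjusted p = 0.39). The second Selp probe set gave 1.06 ± 0.23 and the dimmest 0.46 ± 0.13 in SPF knockouts at 12 weeks, and both were called. The call of the dimmest was lost without SPF 12-week replicate 1 or 3 or wild-type 12-week replicate 3. The difference of the second was 0.68 without SPF 12-week replicate 1.

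Sele encodes E-selectin, which is made by activated endothelium. Its single probe set lay between 2.63 and 3.27 in all 27 arrays, and its mean level stood at the 7.5th percentile of all probe sets. The values in conventional knockouts at 9 weeks were 3.27, 2.83 and 2.88, against 2.71, 2.69 and 2.90 in wild types. SPF knockouts at 12 weeks had 2.93, 2.73 and 3.03, against 2.77, 2.63 and 2.77 in wild types. The groups overlapped in both comparisons, and neither difference was called: 0.23 ± 0.11 (95% interval from -0.00 to 0.46) and 0.17 ± 0.11 (from -0.06 to 0.40). Detection calls are not part of the data used here, so whether Sele was above background at all was not tested.

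Pecam1 encodes an adhesion molecule of endothelial junctions and serves as a general vessel marker. Its log2 level was 5.85, 6.89 and 6.33 in conventional knockouts at 9 weeks, 6.03, 6.05 and 5.73 in SPF knockouts, and 6.42, 5.84 and 6.07 in wild types. At 12 weeks it was 5.91, 6.16 and 6.34 in conventional knockouts, 6.46, 5.69 and 5.99 in SPF knockouts, and 6.53, 5.90 and 6.34 in wild types. Over all 27 arrays Pecam1 lay between 5.69 and 6.89, the 9 group means lay between 5.94 and 6.36, and every group overlapped the next in the order of means. Pecam1 differed by 0.25 ± 0.23 between conventional knockouts and wild types at 9 weeks (95% interval from -0.23 to 0.73). Between SPF knockouts and wild types at 12 weeks the difference was -0.21 ± 0.23 (from -0.69 to 0.27). Both intervals stay below a log2 difference of 1 in either direction.

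Cdh5 encodes VE-cadherin, the cadherin of endothelial junctions. Its brighter probe set gave 5.36, 5.51 and 5.40 in conventional knockouts at 9 weeks, 4.91, 4.99 and 4.48 in SPF knockouts, and 5.18, 4.86 and 4.94 in wild types. At 12 weeks it gave 4.71, 4.83 and 4.95 in conventional knockouts, 5.71, 4.30 and 5.28 in SPF knockouts, and 4.81, 4.61 and 5.01 in wild types. Conventional knockouts at 9 weeks lay above both other groups of that age without overlap, whereas SPF knockouts at 12 weeks lay on both sides of the wild types. At 9 weeks 18.0% of all probe sets lay above the wild types without overlap, and 6.17% above the SPF knockouts. Neither difference from wild types was called, at 0.43 ± 0.22 (95% interval from -0.03 to 0.89) and 0.29 ± 0.22 (from -0.17 to 0.75). Without SPF 12-week replicate 2, the lowest of all 27 arrays for Cdh5, both were called, at 0.43 (adjusted p = 0.0428) and 0.69 (adjusted p = 0.00242). The dimmer Cdh5 probe set stayed between 3.13 and 3.51 in all arrays and had a Pearson correlation of -0.04 with the brighter one, so the 2 probe sets disagree.

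**Figure D2:**
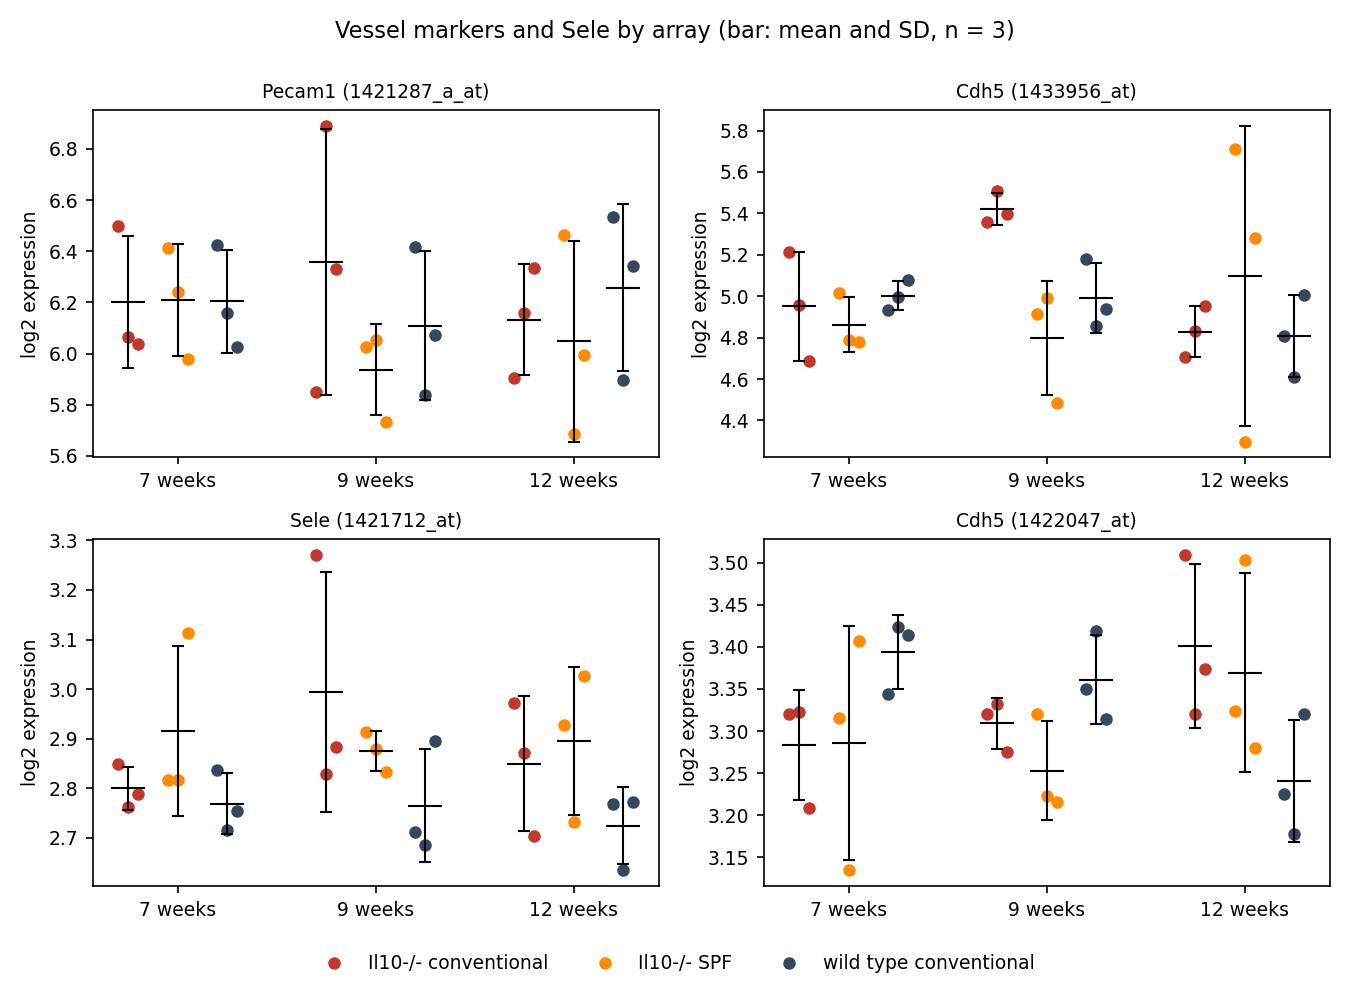
Log2 expression of Pecam1, Sele and both Cdh5 probe sets (vertical axes, each with its own range) in each of the 27 arrays at 7, 9 and 12 weeks; points are arrays, and bars are the mean and SD of 3 arrays. Groups of the same age overlap, apart from conventional knockouts at 9 weeks in the brighter Cdh5 probe set (top right), whose 3 arrays lie above both other groups, and conventional knockouts at 7 weeks in the dimmer one (bottom right), whose arrays lie below the wild types. Of all probe sets, 7.88% lay below the wild types without overlap in conventional knockouts at 7 weeks.

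At 9 weeks 4 of the 7 genes were higher in conventional knockouts than in wild types and none was lower, while 13.2% of all genes were called higher and 8.92% lower by the same rule. By probe set 6 of 12 were called higher, against 9.48% of all probe sets. Without overlap between the groups, 9 of 12 probe sets were higher, against 18.0% of all probe sets. The median difference of the 7 genes was 1.20, and that of all genes was 0.00. At 12 weeks 4 of 7 genes were higher in SPF knockouts than in wild types and none was lower, where 17.2% of all genes were higher and 15.6% lower. There 8 of 12 probe sets were called higher, against 13.0% of all probe sets, and 7 lay above the wild types without overlap, against 14.4%. The median of the 7 genes was 0.87, and that of all genes was 0.02. With the spread estimated from the arrays of the compared groups alone, SPF knockouts at 12 weeks had 1 call, Icam1. Vcam1 (adjusted p = 0.0604), Madcam1 (0.071) and Selp (0.131) were then above the threshold.

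**Figure D3:**
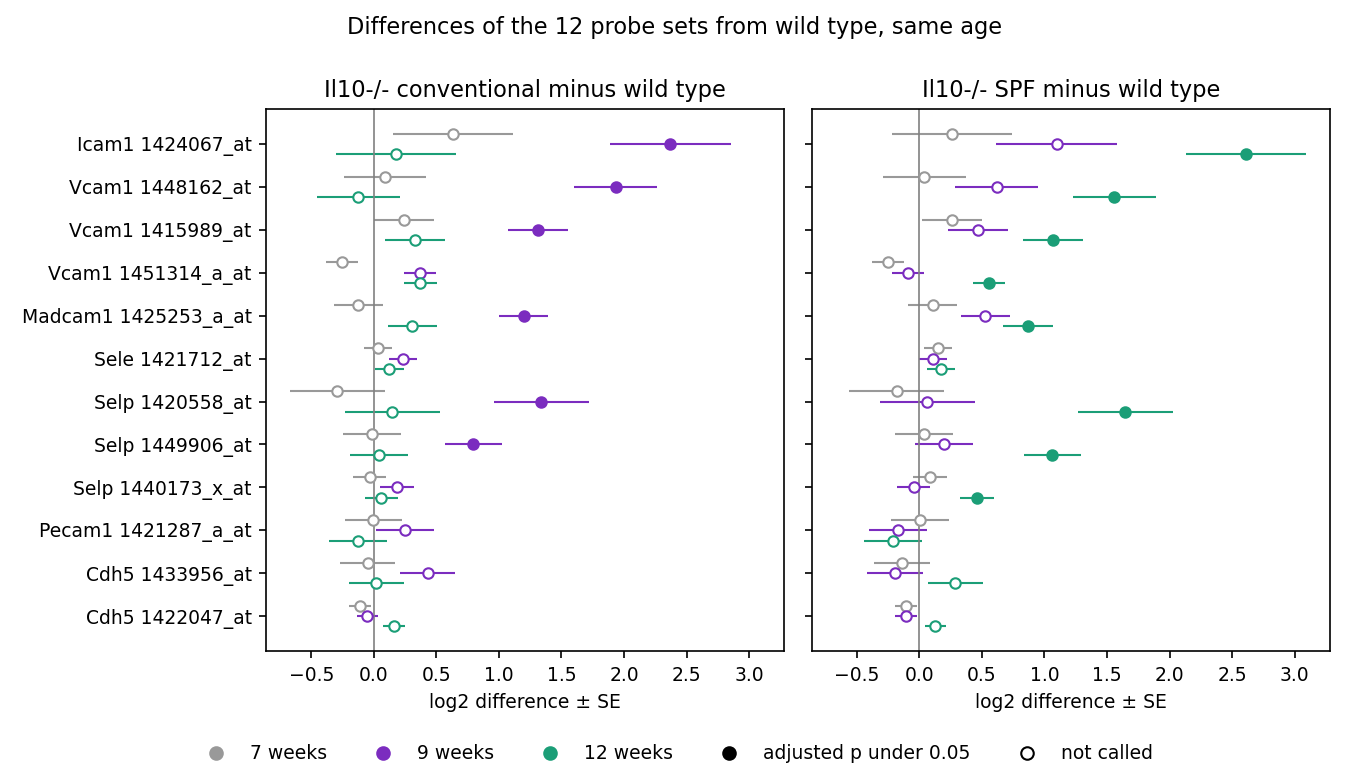
Log2 difference with its standard error (horizontal axis) of each of the 12 probe sets from wild types of the same age, for conventional knockouts (left) and SPF knockouts (right) at 7, 9 and 12 weeks; filled points have an adjusted p under 0.05. The filled points are the 9-week ones at left and the 12-week ones at right, in Icam1, Vcam1, Madcam1 and Selp.

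The other comparisons of a knockout group with wild types held no call among the 7 genes by limma. At 7 weeks no gene was called in conventional knockouts against wild types (background 0.286% higher and 0.121% lower), and none had an unadjusted p under 0.05. SPF knockouts against wild types at 7 weeks likewise had no call and no unadjusted p under 0.05, with 0.0605% of all genes higher and 0.0440% lower. At 9 weeks SPF knockouts had no call against wild types, where 6.41% of all genes were higher, and 2 genes, Icam1 and Madcam1, had an unadjusted p under 0.05. Vcam1 was called there without SPF 9-week replicate 1, and Madcam1 without SPF 12-week replicate 2. At 12 weeks conventional knockouts had no call against wild types (background 0.275% higher and 0.209% lower) and no unadjusted p under 0.05 by the brightest probe sets. Their differences there were 0.18 ± 0.48 for Icam1, with a 95% interval from -0.82 to 1.17, and -0.12 ± 0.33 for Vcam1, with an interval from -0.81 to 0.56, in its brightest probe set. The other Vcam1 probe sets lay above the wild types without overlap there, as did 8.19% of all probe sets. The second differed by 0.33 ± 0.24 (adjusted p = 0.553) and the dimmest by 0.37 ± 0.13 (adjusted p = 0.16, with a 95% interval from 0.11 to 0.64). The 3 probe sets thus disagree in sign at 12 weeks, and the unadjusted p of the dimmest was 0.00795. Madcam1 and Selp gave 0.31 ± 0.20 and 0.15 ± 0.38 in the same comparison. These intervals do not show that the levels were equal to those of wild types.

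The 2 knockout groups were also set against each other. At 12 weeks 3 of the 7 genes were lower in conventional than in SPF knockouts, where 12.3% of all genes were lower and 9.73% higher. Icam1 fell by 2.43 ± 0.48 on the log2 scale (5.41-fold lower, adjusted p = 0.00314). Vcam1 fell by 1.68 ± 0.33 (adjusted p = 0.0031) and Selp fell by 1.50 ± 0.38 (adjusted p = 0.00987). Madcam1 had a difference of -0.56 ± 0.20 that was not called (adjusted p = 0.0554), and Pecam1 had 0.09 ± 0.23. With the spread taken from the arrays of these 2 groups alone, no call was left (adjusted p = 0.11 for Icam1, 0.114 for Vcam1 and 0.197 for Selp). The Selp call was lost without SPF 12-week replicate 1 or 3, and the difference of Selp without replicate 1 was -0.85. Madcam1 and Cdh5 were called as well without SPF 12-week replicate 2, which makes 5 genes, in a fit whose share of all genes is not given here. At 9 weeks the direction was the other one in Icam1, Vcam1, Madcam1 and Selp, with differences of 1.28 ± 0.48 for Icam1, 1.32 ± 0.33 for Vcam1, 0.67 ± 0.20 for Madcam1 and 1.28 ± 0.38 for Selp. None of these was called (adjusted p from 0.232 to 0.519), in a comparison where 0% of all genes were called higher. An unadjusted p under 0.05 was reached by 5 of the 7 genes, Cdh5 included, and 8 of 12 probe sets lay above the SPF knockouts without overlap, against 6.17% of all probe sets. Vcam1 and Selp were called when SPF 12-week replicate 2 was left out, a fit whose share of all genes is not given here. At 7 weeks no gene was called between the knockouts, where 0.137% of all genes were higher and 0.0934% lower, and none had an unadjusted p under 0.05.

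Each kind of mice was then followed over the 3 ages. In conventional knockouts 4 of 7 genes were higher at 9 than at 7 weeks, where 4.63% of all genes were higher: Icam1 by 2.13 ± 0.48, Vcam1 by 1.77 ± 0.33, Madcam1 by 0.95 ± 0.20 and Selp by 1.40 ± 0.38. At 12 against 9 weeks 3 genes were lower, where 4.34% of all genes were lower. Icam1 fell by 2.20 ± 0.48, Vcam1 fell by 1.78 ± 0.33 and Madcam1 fell by 0.85 ± 0.20, while Selp had -0.99 ± 0.38 and was not called (adjusted p = 0.134). Both counts depend on single arrays. At 9 against 7 weeks, 1 call (Vcam1) was left without conventional 9-week replicate 2, and 2 calls without 9-week replicate 1 or 7-week replicate 1 or 2. At 12 against 9 weeks, no call was left without 9-week replicate 1, 1 call without 9-week replicate 2 or 12-week replicate 1, and there were 5 calls without SPF 12-week replicate 2. In SPF knockouts neither step was called for any gene. At 12 against 9 weeks Selp differed by 1.79 ± 0.38 (adjusted p = 0.0945), Icam1 by 1.51 ± 0.48 (adjusted p = 0.138) and Vcam1 by 1.22 ± 0.33 (adjusted p = 0.107), in a comparison that called 0% of all genes in either direction. These 3 genes had an unadjusted p under 0.05. At 9 against 7 weeks 1 gene, Icam1, had an unadjusted p under 0.05, where 0.363% of all genes were called higher. When SPF 12-week replicate 2 was left out, 5 of the 7 genes were higher at 12 than at 9 weeks, and without SPF 9-week replicate 3 those 3 genes were. SPF 12-week replicate 2 was the lowest of its group in Icam1, Vcam1, Madcam1, Selp and Cdh5, so leaving it out raises their means at 12 weeks. Shares of all genes in the leave-outs named here are not given, so these counts stand without a background. Wild types had no call among the 7 genes at either step, and no unadjusted p under 0.05; 0.0110% of all genes were higher at 9 than at 7 weeks, and 0% differed between 12 and 9 weeks.

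The change of a difference with age was tested directly. The difference between conventional and SPF knockouts changed between 9 and 12 weeks in 4 of 7 genes, all toward lower in conventional knockouts, where 9.31% of all genes changed that way. The change was -3.71 ± 0.68 for Icam1 (adjusted p = 0.00238), -3.00 ± 0.47 for Vcam1 (adjusted p = 0.0011), -2.78 ± 0.54 for Selp (adjusted p = 0.00322) and -1.23 ± 0.28 for Madcam1 (adjusted p = 0.00839). Pecam1 gave -0.33 ± 0.33 and Cdh5 -0.89 ± 0.31, neither called. These calls, by the brightest probe sets, held in each of the 27 leave-outs, but with the spread taken from the 4 groups alone none of the 7 genes was called. Against wild types, conventional knockouts changed from 7 to 9 weeks in Madcam1 (1.32 ± 0.28, adjusted p = 0.0308), where 0.638% of all genes changed upward. That call was lost in 9 of the 27 leave-outs. From 7 to 9 weeks the mean of Madcam1 went from 4.71 to 5.67 in conventional knockouts and from 4.84 to 4.47 in wild types. From 9 to 12 weeks they changed in Vcam1 (-2.06 ± 0.47), where 0.544% of all genes changed downward. The other Vcam1 probe sets gave -0.98 ± 0.34 (adjusted p = 0.131) and 0.00 ± 0.18 (adjusted p = 0.993). The adjusted p of the brightest was 0.05 after rounding and lay at the threshold, and the call was lost in 20 of the 27 leave-outs. The change of the difference of SPF knockouts from wild types between 9 and 12 weeks was not called in any gene, where 0% of all genes were, and 2 of the 7 genes had an unadjusted p under 0.05. With SPF 12-week replicate 2 left out, 4 of the 7 genes were called in it. The share of all genes in that leave-out is not given here either. Between 7 and 9 weeks the difference between conventional and SPF knockouts had no called change, where 0.0440% of all genes changed upward. Madcam1 (0.90 ± 0.28), Selp (1.39 ± 0.54) and Vcam1 (1.27 ± 0.47) had an unadjusted p under 0.05 there.

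In the order of the 9 group means, SPF knockouts at 12 weeks stood first for Icam1 (8.0 ± 1.26, SD, n = 3) and conventional knockouts at 9 weeks second (7.76 ± 0.84). Conventional knockouts at 9 weeks stood first for Vcam1 (7.62 ± 0.17), Madcam1 (5.67 ± 0.33), Cdh5 (5.42 ± 0.08), Pecam1 (6.36 ± 0.52) and Sele (2.99 ± 0.24). For Selp the SPF knockouts at 12 weeks stood first (5.72 ± 1.40) and the conventional knockouts at 9 weeks second (5.21 ± 0.38). The arrays of neighbouring groups in these orders overlapped throughout, with 1 exception. That was the step in Selp from conventional knockouts at 9 weeks to the third group, which was conventional knockouts at 12 weeks (4.22 ± 0.26) in the brightest probe set. In the second Selp probe set the same group also stood clear of the third, which there was SPF knockouts at 9 weeks (3.39 ± 0.35). The SDs of SPF knockouts at 12 weeks, 1.26 for Icam1, 0.88 for Vcam1 and 1.40 for Selp, exceed those of wild types of that age, 0.24 for Icam1, 0.23 for Vcam1 and 0.07 for Selp. In Icam1, Vcam1, Madcam1 and Selp, SPF 12-week replicate 2 was the lowest of its group.

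The integrins and selectin ligands on leukocytes that bind these molecules were examined as a list of 12 genes, 10 of them measured. Against wild types, 7 of 10 were higher in conventional knockouts at 9 weeks and none was lower, with a median difference of 1.05. Itgb2, the beta chain of LFA-1 and Mac-1, was 2.51 ± 0.44 higher, and Itgal, the alpha chain of LFA-1, 2.18 ± 0.44. Itgb7, which pairs with alpha4 to bind MAdCAM-1, was 0.83 ± 0.15 higher, while Itga4, its partner and that of VCAM-1 binding, had 0.30 ± 0.16 and was not called. The count was also 7 of 10 in SPF knockouts at 12 weeks, with a median of 1.08; Itgam, the alpha chain of Mac-1, was 1.72 ± 0.31 higher and Selplg, the ligand of P-selectin, 1.43 ± 0.28. Conventional knockouts at 12 weeks were lower than SPF knockouts in 6 of 10. Of all genes, 13.2% were higher in conventional knockouts at 9 weeks and 17.2% in SPF knockouts at 12 weeks, and 12.3% were lower in conventional than in SPF knockouts at 12 weeks. Leukocyte markers also differed in these samples, as described further on.

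Cytokines, receptors and NF-kB components known to act on adhesion molecules formed a list of 19 genes, 18 of them measured. Against wild types, 9 of 18 were higher in conventional knockouts at 9 weeks and none was lower, with a median of 0.56. The TNF receptor gene Tnfrsf1b was 2.31 ± 0.31 higher (adjusted p = 5.4e-05), the transcription factor Irf1 1.11 ± 0.17, Tnf 1.27 ± 0.25 and Il1b 3.45 ± 0.71. The count was 14 of 18 higher and none lower in SPF knockouts at 12 weeks, with a median of 1.02. These included Tnfrsf1b at 2.80 ± 0.31, the other TNF receptor gene Tnfrsf1a at 1.10 ± 0.16 and the NF-kB subunit Rela at 0.64 ± 0.11. Conventional knockouts at 12 weeks were lower than SPF knockouts in 12 of 18. The shares of all genes were again 13.2%, 17.2% and 12.3% in these comparisons. Whether the difference in the counts between 9 of 18 and 14 of 18 exceeds the spread was not tested.

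Other genes of vessels were counted in the same way, where 13.2% of all genes were higher and 8.92% lower in conventional knockouts at 9 weeks, and 17.2% were higher and 15.6% lower in SPF knockouts at 12 weeks. Of 16 other endothelial junction and adhesion genes, 1 was higher and 3 were lower in conventional knockouts at 9 weeks, with a median of -0.11. Vwf, which encodes von Willebrand factor, stored with P-selectin in endothelial granules, was 0.69 ± 0.24 higher (adjusted p = 0.0474). The tight junction scaffold Tjp1 fell by 0.44 ± 0.10, the junctional adhesion molecule Jam3 fell by 0.65 ± 0.22 and Alcam fell by 0.58 ± 0.20. In SPF knockouts at 12 weeks 1 was higher and 4 were lower, with a median of -0.19. Nectin2 was 0.85 ± 0.14 higher there, and Jam3 fell by 0.94 ± 0.22, Mcam fell by 0.45 ± 0.15 and the catenin Ctnnb1 fell by 0.29 ± 0.08. Without wild-type 12-week replicate 2, 3 of the 16 were called in place of 5. Several of these genes are also expressed in epithelium or muscle.

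The list of 17 endothelial growth factors and their receptors had 1 gene higher and none lower in conventional knockouts at 9 weeks (13.2% and 8.92% of all genes), with a median of -0.00. That gene was Notch4, a Notch receptor of endothelium (0.86 ± 0.29, adjusted p = 0.0463). In SPF knockouts at 12 weeks 3 were higher and 2 lower (17.2% and 15.6% of all genes), and the higher ones included Notch4 (1.45 ± 0.29) and Angpt2 (0.60 ± 0.17), the ligand that opposes angiopoietin-1. The angiopoietin receptor Tek fell by 0.88 ± 0.21 and the VEGF co-receptor Nrp1 fell by 0.67 ± 0.17. Vegfa gave -0.09 ± 0.13 in conventional knockouts at 9 weeks and -0.01 ± 0.13 in SPF knockouts at 12 weeks, and was not called in either.

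**Figure D4:**
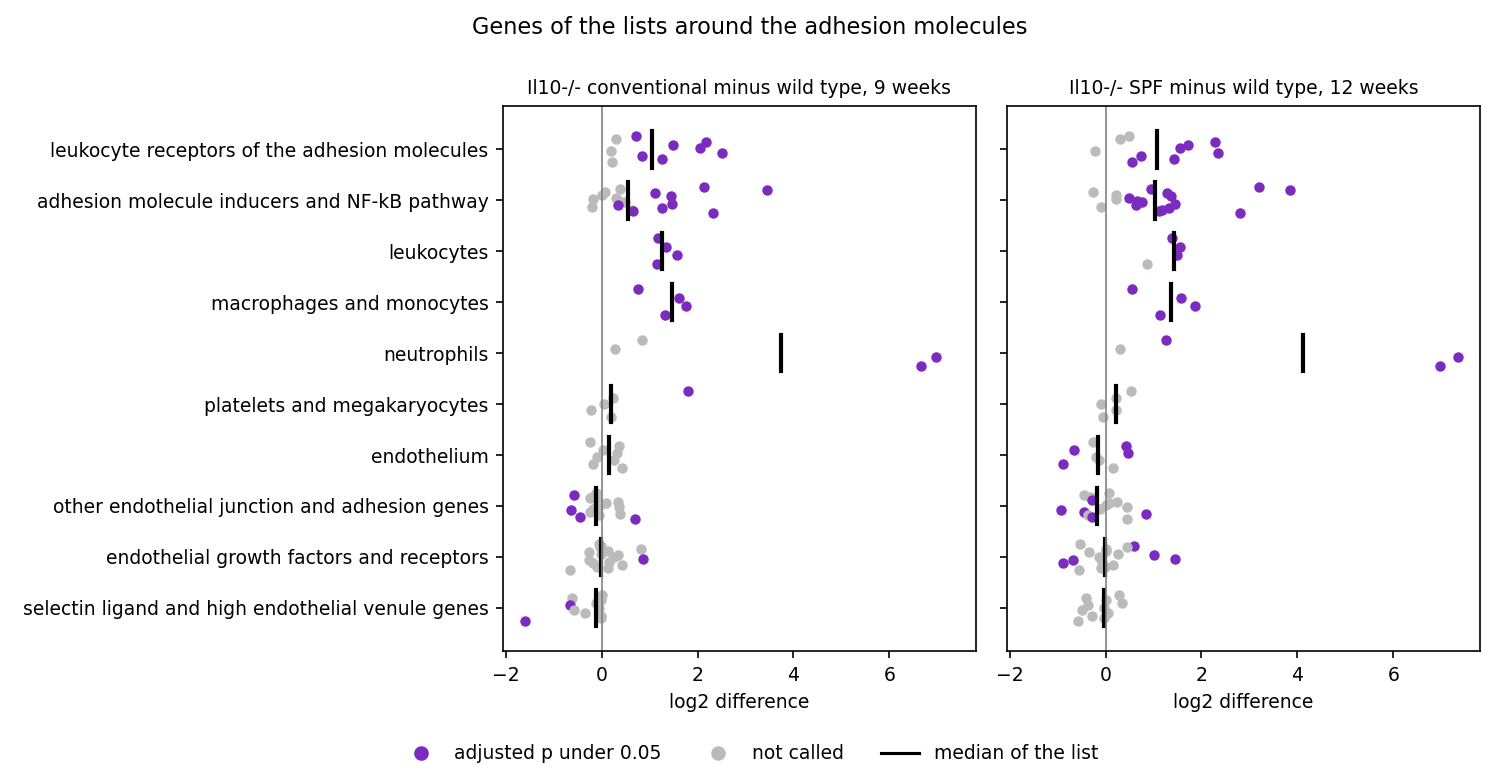
Log2 difference from wild types (horizontal axis) of the genes of each list, for conventional knockouts at 9 weeks (left) and SPF knockouts at 12 weeks (right); each point is a gene, purple where its adjusted p is under 0.05, and the black line is the median of the list. The lists of leukocyte receptors, inducers, leukocytes, macrophages and neutrophils lie to the right of 0, while the endothelial lists are centred near 0.

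Markers of the cell types that could carry these transcripts were read in the same arrays. Of 8 endothelial markers none was called in conventional knockouts against wild types at 9 weeks (median 0.15). Their mean log2 level lay between 5.66 and 6.04 in conventional knockouts and between 5.65 and 5.78 in wild types. In SPF knockouts at 12 weeks 2 were higher, Egfl7 (0.42 ± 0.14) and Eng (0.46 ± 0.16), and 2 were lower, Tek and Emcn (-0.65 ± 0.24). Shares of all genes there were 17.2% higher and 15.6% lower, and in conventional knockouts at 9 weeks 13.2% and 8.92%. Mean levels at 12 weeks lay between 5.63 and 5.82 in SPF knockouts and between 5.77 and 5.89 in wild types. These means average markers that were called in opposite directions. Without wild-type 12-week replicate 2, 2 of these 8 were called. The ranges of the mean level overlapped between the groups in both comparisons, in which Icam1, Vcam1, Madcam1 and Selp were called higher.

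Leukocyte markers were also higher in both of these comparisons. Shares of all genes called higher were 13.2% in conventional knockouts at 9 weeks and 17.2% in SPF knockouts at 12 weeks. Of 4 general leukocyte markers, 4 were higher in conventional knockouts at 9 weeks, where their mean level lay between 8.63 and 9.52, against 7.72 to 8.13 in wild types. In SPF knockouts at 12 weeks 3 were higher, with mean levels between 8.11 and 10.19, against 7.80 to 7.93 in wild types. Macrophage markers were higher in 4 of 4 genes in both comparisons, at 7.91 to 8.41 in conventional knockouts against 6.72 to 7.11 in wild types at 9 weeks, and at 7.57 to 8.62 in SPF knockouts against 6.63 to 6.98 in wild types at 12 weeks. Neutrophil markers had mean levels between 6.30 and 7.67 in conventional knockouts against 3.33 to 3.50 in wild types at 9 weeks, with 2 of 4 called. In SPF knockouts at 12 weeks they lay between 5.26 and 9.04, against 3.39 to 3.53 in wild types, with 3 of 4 called. The mean of the macrophage markers also lay above wild types in conventional knockouts at 7 weeks (7.25 to 7.34 against 6.56 to 6.93). At 12 weeks it did so too (7.08 to 7.37 against 6.63 to 6.98). None of these markers was called at those ages, and neither were Icam1, Vcam1, Madcam1 and Selp. The part of these cells in the differences of Icam1, Vcam1, Madcam1 and Selp was not tested.

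Platelet markers bear on Selp and Pecam1. In conventional knockouts at 9 weeks 1 of 5 was higher, Gp1bb (1.81 ± 0.34), where 13.2% of all genes were higher. The mean level of the list lay between 5.48 and 5.72 there, against 5.13 to 5.24 in wild types. The median difference of the 5 was 0.20, so the difference in the mean level rests mostly on Gp1bb. None was called in SPF knockouts at 12 weeks, where the mean level lay between 5.34 and 5.70, against 5.22 to 5.45 in wild types. In replicates 1, 2 and 3 of these SPF knockouts the platelet mean was 5.70, 5.40 and 5.34, and Selp was 7.02, 4.25 and 5.91. Of 4 markers of B cells and follicles, the lymphoid tissue in which Madcam1 is known, none was called in either comparison. In each comparison 1 of them was higher with an unadjusted p under 0.05. Their mean level lay between 5.29 and 6.39 in conventional knockouts at 9 weeks, against 5.79 to 6.27 in wild types. At 12 weeks it lay between 5.22 (replicate 2) and 7.58 in SPF knockouts, against 5.83 to 6.11 in wild types. Smooth muscle markers, which fill the outer wall, were lower in 2 of 4 genes in conventional knockouts at 9 weeks (8.92% of all genes). In SPF knockouts at 12 weeks 4 of 4 were lower (15.6% of all genes), and Myh11 fell by 1.51 ± 0.24 there. The part of these tissues in the results was not tested either. No marker value is 0 on this scale, and the level that an absent transcript gives is not known here.

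The genes whose pattern over the 27 arrays was most like that of a member were named by Pearson correlation over 18193 genes, as a description in which arrays share their group, their mice and their normalization. For Icam1 they were Tnfaip2 (0.984), Cxcl10 (0.983), Slamf8 (0.979), Slc15a3 (0.977) and Csf2rb (0.976). The nearest to Vcam1 were Crlf2 and Ptpn22 (0.968 each), Ms4a6b (0.964), and Slfn2 and Ms4a6d (0.956 each). For Selp they were Il6 (0.936), Il1r2 and Clec4e (0.931 each), Bst1 (0.926) and Itgam (0.923), and for Madcam1 they were Lama1 (0.918), Cyba (0.901), Unc13d (0.900), Col18a1 (0.894) and Gpsm3 (0.892). The nearest to Pecam1 included Tie1 (0.798) and Emcn (0.729), 2 of the 8 endothelial markers, and also Mmrn2 (0.777), Esam (0.764) and Sox18 (0.707). Cdh5 was nearest to Adgrf5 (0.800), Elk3 (0.779), Col4a2 (0.764), Zbtb42 (0.763) and Cd93 (0.762). For Sele the closest was Klhl25 at 0.706, in a gene that hardly varied. Among the members, Icam1 had a correlation of 0.925 with Vcam1, 0.832 with Madcam1, 0.825 with Selp and 0.012 with Pecam1, while Pecam1 and Cdh5 had 0.607 with each other.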

How the data were processed

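RNA of full-thickness mouse colon was labelled with biotin and hybridized to 27 Affymetrix arrays, 9 groups of 3, per the labels. The authors normalized them with affyPLM, per the series' design text, and deposited log2 values for each probe set. That text calls the array a rat one, whereas its probe sets belong to a mouse design. No source used here gives the version, the background step or the summary method. Normalization across arrays holds their medians together, so differences are relative to the other transcripts of an array. Values lay between 2.10 and 14.25. Arrays have no count-like depth, so precision is limited by their number.

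Of 45101 probe sets, 64 controls were left out. GEO's platform annotation gave 1 symbol to 34945 probe sets, several to 932 and none to 9160. None of the 12 member probe sets had several symbols. A gene was counted by its probe set with the highest mean.

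limma (3.58.1, R 4.3.3) fitted 9 group means over the 27 arrays (18 residual degrees of freedom) and tested 20 contrasts (eBayes, two-sided, Benjamini-Hochberg over 45037 probe sets, called under 0.05). Tested on data simulated for the 9-week comparison of conventional knockouts with wild types, it called 86% of 100 probe sets changed by 1 log2 unit and 99% of 100 changed by 2. It also called 16 unchanged probe sets, in a table of 45037 in all. Alternatives were quantile normalization again, median centring, leaving out the lowest 40% of probe sets, 1 probe set a gene, an intensity trend, array weights, averaging the probe sets of a gene, the compared groups' arrays alone, a minimum difference of 1, a replicate block and leaving out each array. Counts in the gene lists without SPF 12-week replicate 2 and without wild-type 12-week replicate 2 were added after the data were seen.

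The members, lists and tests were chosen with earlier results of these data known. Named were all member probe sets, called list members with small adjusted p, Itga4 and Vegfa (chosen after their values were seen), and the 5 genes nearest to a member by correlation. Other tools were Python 3.11.15, pandas 2.3.3, NumPy 2.4.6 and matplotlib 3.10.9.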

Additional observations from a re-analysis of the deposited data

Results flagged for a closer look

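The changes of differences with age in Icam1, Vcam1, Madcam1 and Selp are listed here because the effect of the kind of mice differed between 2 ages by a test of the difference itself. For conventional against SPF knockouts between 9 and 12 weeks, the change was -3.71 ± 0.68 log2 units for Icam1, the ligand of leukocyte integrins LFA-1 and Mac-1 (adjusted p = 0.00238). Vcam1 gave -3.00 ± 0.47 (adjusted p = 0.0011), -1.58 ± 0.34 (adjusted p = 0.00597) and -0.64 ± 0.18 (adjusted p = 0.0241) in its 3 probe sets, from the brightest to the dimmest. Madcam1 gave -1.23 ± 0.28 (adjusted p = 0.00839). Selp gave -2.78 ± 0.54 (adjusted p = 0.00322), -1.62 ± 0.33 (adjusted p = 0.00421) and -0.63 ± 0.19 (adjusted p = 0.0313) in its 3, in the same order. The call of the dimmest Vcam1 probe set was lost in 5 of the 27 leave-outs, and that of the dimmest Selp probe set in 7 of 27 and with the replicate block. With the spread taken from the arrays of the compared groups alone, none of these calls was left in any of the probe sets. All were toward lower in conventional knockouts at the later age, and the leukocyte, macrophage and neutrophil markers moved in the same samples.

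For conventional knockouts against wild types, Madcam1 changed by 1.32 ± 0.28 between 7 and 9 weeks (adjusted p = 0.0308), and Vcam1 changed by -2.06 ± 0.47 between 9 and 12 weeks (adjusted p of 0.05 after rounding). The other Vcam1 probe sets gave -0.98 ± 0.34 and 0.00 ± 0.18 in that change and were not called. Of the 27 leave-outs, the Madcam1 call held in 18 and the Vcam1 call in 7. The mean of Madcam1 in wild types was 4.84 at 7 weeks and 4.47 at 9 weeks.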

How the results depend on the processing

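No called difference changed its sign in any alternative. Icam1, Vcam1 and Madcam1 in conventional knockouts against wild types at 9 weeks were called in every alternative run. With array weights the genes called numbered 2 in SPF knockouts against wild types at 9 weeks, 5 in conventional against SPF knockouts at 9 weeks, 5 at 12 weeks, 5 in conventional knockouts at 12 against 9 weeks, and 1 (9 against 7) and 4 (12 against 9) in SPF knockouts. For changes of a difference they numbered 4 and 4 (conventional minus wild type, 9 against 7 and 12 against 9), 2 (SPF minus wild type, 12 against 9) and 2 (conventional minus SPF, 9 against 7). With the compared groups alone they numbered 1 in SPF knockouts against wild types at 12 weeks, 0 in conventional against SPF knockouts at 12 weeks, 5 in conventional knockouts at 12 against 9 weeks, and 4, 4 and 0 for the changes conventional minus wild type (9 against 7, 12 against 9) and conventional minus SPF (12 against 9). For conventional minus wild type at 9 against 7 weeks, 2 genes were called without the lowest 40% of probe sets (which drops Sele), with 1 probe set a gene and with the mean of probe sets. At 12 against 9 weeks, 0 were called after quantile normalization, with the mean of probe sets and with the replicate block. Apart from array weights, the compared groups and the smaller tables, the cause was not tested. Shares of all genes in these alternatives and in the leave-outs are not given here, so their counts stand without a background.

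Leaving out 1 array gave 3 to 5 genes in conventional knockouts against wild types at 9 weeks, 4 to 5 in SPF knockouts against wild types at 12 weeks, 0 to 1 at 9 weeks, 0 to 2 (9 weeks) and 2 to 5 (12 weeks) between the knockouts, 1 to 5 (9 against 7) and 0 to 5 (12 against 9) in conventional knockouts, and 0 to 5 in SPF knockouts at 12 against 9 weeks. For changes it gave 0 to 3 and 0 to 4 (conventional minus wild type), 0 to 4 (SPF minus wild type) and 4 to 5 (conventional minus SPF, 12 against 9). Most of the highest counts came without SPF 12-week replicate 2.

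Replicate numbers did not pair the samples: of 27 same-numbered pairs, deviations from group means correlated at -0.36 to 0.22, and 4 pairs exceeded 0.1. The replicate block left 4 genes in conventional knockouts at 9 weeks and 4 in SPF knockouts at 12 weeks against wild types, and 0 where conventional minus wild type (12 against 9) had 1. In the gene lists the count without SPF 12-week replicate 2 moved by over 1.5 times in 10 of 32 list comparisons, and without wild-type 12-week replicate 2 in 4 of 32. Signal over background is not known for these arrays, which limits Sele and the dim Selp and Cdh5 probe sets most.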

Other observations

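Genes that build selectin ligands were read together with genes of high endothelial venules. Of 11 measured genes none was higher and 2 were lower in conventional knockouts than in wild types at 9 weeks, with a median of -0.12. Of all genes, 13.2% were higher and 8.92% lower there. St3gal6, a sialyltransferase that acts on selectin ligands, averaged 8.39 in conventional knockouts and 9.99 in wild types, a difference of -1.60 ± 0.23 (adjusted p = 0.000108). Its arrays did not overlap, and 19.8% of all genes were lower without overlap in that comparison. Fut4, a fucosyltransferase of the same route, fell by 0.66 ± 0.22 (adjusted p = 0.0415). St3gal6 was also lower in SPF knockouts than in wild types at 9 weeks (-0.87 ± 0.23, adjusted p = 0.0247), where Icam1, Vcam1, Madcam1 and Selp were not called. It was the only gene of the list called there, and 3.64% of all genes were lower. At 12 weeks no gene of the list was called in SPF knockouts against wild types, where 17.2% of all genes were higher and 15.6% lower. St3gal6 gave -0.57 ± 0.23 there (adjusted p = 0.0732). Glycam1, a ligand of L-selectin in high endothelial venules, gave -0.35 ± 0.17 and 0.06 ± 0.17 in conventional knockouts at 9 weeks and SPF knockouts at 12 weeks, and was named after its values were seen. Both St3gal6 and Fut4 are also active in epithelium, and the part of epithelium in these values was not tested.

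Cells around the vessels were read by 3 pericyte markers. Rgs5 averaged 10.37 in SPF knockouts and 11.85 in wild types at 12 weeks, a difference of -1.48 ± 0.30 (adjusted p = 0.000885), while the other two pericyte markers were not called. In conventional knockouts at 9 weeks Rgs5 gave -0.70 ± 0.30 and was not called (adjusted p = 0.108). Rgs5 is also expressed in smooth muscle, whose markers were lower in the same SPF samples. Of 4 markers of lymphatic endothelium, 1 was called higher in SPF knockouts than in wild types at 12 weeks, where 17.2% of all genes were higher. It was Pdpn (0.52 ± 0.18, adjusted p = 0.0323). The median of the 4 was -0.36, and 1 of them was lower with an unadjusted p under 0.05. No lymphatic marker was called without wild-type 12-week replicate 2.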
